A study of Mus musculus with 6 samples.

Results

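The 59 genes described here encode subunits of respiratory chain complexes I to IV and cytochrome c, out of 21900 protein-coding genes of the annotation. They were taken as a fixed list of names: 35 genes of complex I, 4 of complex II, 9 of complex III, 1 of cytochrome c and 10 of complex IV. Ndufa4, long listed under complex I, was counted with complex IV. All 59 names matched the RefSeq annotation of the mouse assembly GRCm38.p6, which is mm10. The samples were E14 mouse embryonic stem cells, a line from the blastocyst, grown on gelatin in N2B27 medium. The first group (2iL) also received the GSK3 inhibitor CHIR99021 at 3 µM, the MEK inhibitor PD0325901 at 1 µM and LIF. The other groups were collected 48 h or 96 h after these additions were taken away, in N2B27 alone. Chromatin was fixed with 1% formaldehyde and precipitated with a mouse monoclonal antibody to ESRRB, and 1 ESRRB library and 1 input library were made for each condition. The 3 input libraries were not used here.

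ESRRB is an orphan nuclear receptor of the naive pluripotency network. It binds as a monomer to the estrogen-related receptor element, and shares this element with its relatives ESRRA and ESRRG, which are known regulators of oxidative metabolism genes in muscle, heart and fat. The respiratory chain passes electrons from NADH (complex I) and succinate (complex II) through ubiquinone to complex III, and through cytochrome c to complex IV, which reduces oxygen. Complexes I, III and IV pump protons while doing so, and ATP synthase uses the gradient. Naive mouse embryonic stem cells are known to respire and to use glycolysis as well, and cells leaving the naive state rely more on glycolysis.

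A region is a unique interval of a deposited peak list, with the summit of highest fold enrichment in it. The fold is the authors' ratio of summit reads to a local background. Whether that background came from the ESRRB library or from its input is not stated. The lists held 13767 regions in 2iL, 10970 after 48 h and 7018 after 96 h, with median folds of 5.88, 4.98 and 4.82. The lowest background recovered from the values was 5.04 reads in 2iL, 8.09 after 48 h and 5.84 after 96 h, so the 48 h library had the highest floor. With 1 library per condition there was no replicate check and no test between conditions, and intervals on shares cover counting error only. The files hold binding of 1 factor and no expression, so the labelled cell type could not be checked against markers. A missing region means that none was called at the depth of that library. Where 3 values follow each other they are in the order 2iL, 48 h, 96 h. Distances to a gene span without a library are those of the 2iL summit where there is one. Positions count in bp from the gene start of a promoter table, negative before it. That start can lie inside the gene span. It equalled the span's first base on the gene's strand for 49.8% of 21263 promoter windows of protein-coding genes.

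Most respiratory chain genes had an ESRRB region close by. In 2iL, 47 of 59 (79.7%, exact 95% interval 67.2 to 89.0) had a summit within 10 kb of the gene span, against 31.7% of all protein-coding genes. At 48 h the count was 45 (76.3%, 63.4 to 86.4), against 27.1%. At 96 h it was 41 (69.5%, 56.1 to 80.8), against 20.1%. In every library the member share was therefore more than 2 times the background share. Regions were found in all 3 libraries at 34 members (57.6%), against 15.3% of protein-coding genes, and in at least 1 library at 51 (86.4%), against 38.7%. The members are short genes, with a median span of 7279 bp against 17146 bp for all protein-coding genes. Among the 16989 protein-coding genes whose span lay within the members' range of 1902 to 100300 bp, the shares were 31.4%, 26.3% and 19.4%. This range holds most protein-coding genes, so these shares cannot show what genes of the members' typical span would have. Within 50 kb, 52, 49 and 48 members had a region, against 55.9%, 49.9% and 39.5% of protein-coding genes.

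The member counts were lower in the shorter lists, and this order did not hold at equal length. When each list was shortened to its 7018 regions of highest fold, 28 members had a region in 2iL, 25 after 48 h and 41 after 96 h, against 18.6%, 18.3% and 20.1% of protein-coding genes. When the lists were shortened by p, an alternative chosen after seeing the data, the counts were 32, 38 and 41, against 19.2%, 19.4% and 20.1%. At equal length the 96 h list thus had the most members. The members' share stayed above the background in each of these settings.

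The regions lay mainly at the gene start. A summit within 1 kb of the start was called for 42 members in 2iL (71.2%), against 6.78% of protein-coding genes, for 37 at 48 h (62.7%), against 5.15%, and for 33 at 96 h (55.9%), against 4.19%. Of the 65 regions that the members held in 2iL, 43 were start regions. The same held for 37 of 55 at 48 h and 33 of 45 at 96 h. A start region in all 3 libraries was called for 26 members (44.1%), against 2.66% of protein-coding genes, and in at least 1 library for 46 (78.0%), against 8.80%. The start came from a promoter table for 49 members. For the 10 others (Ndufa2, Ndufb9, Ndufs1, Sdhc, Uqcrc2, Uqcrb, Uqcrq, Cyc1, Cox4i1 and Cox6c), either end of the gene span counted as the start, so no signed position is given for them.

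**Figure D1:**
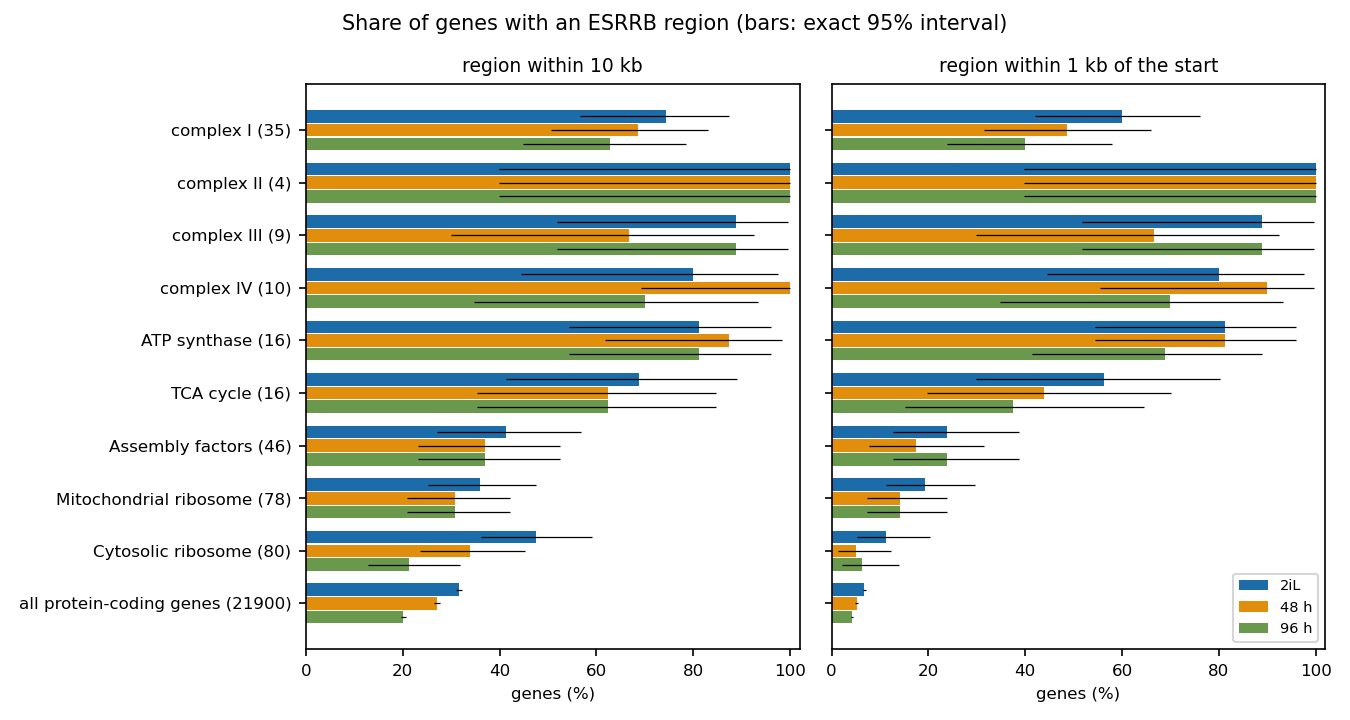
Share of genes in each list (number of genes in parentheses) with an ESRRB region within 10 kb of the span (left) or within 1 kb of the start (right), in percent, with exact 95% intervals. The complexes lie far above the 31.7%, 27.1% and 20.1% of all protein-coding genes on the left, and further above the 6.78%, 5.15% and 4.19% on the right.

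Complex I, the NADH dehydrogenase, is the largest complex. Of its 35 members, 26 had a region within 10 kb in 2iL, 24 after 48 h and 22 after 96 h, and 21, 17 and 14 had a start region. The median fold of its regions was 5.29 in 2iL, 4.12 after 48 h and 4.19 after 96 h. The core subunits carry the flavin and the iron-sulfur clusters that lead electrons to ubiquinone. Ndufs1, an iron-sulfur core subunit, had the locus with the highest 96 h fold among the members (chr1:63136929-63140909). Its fold was 8.61 in 2iL, 10.3 after 48 h and 13.0 after 96 h, the lowest value being that of 2iL, and it lay 4622 bp outside the gene span. A region at an end of the Ndufs1 span was called in 2iL (4.35-fold) and at 48 h (3.69-fold) and not at 96 h. It counted as a start region, because Ndufs1 had no start in the promoter table and either end was used. Ndufs3, a core subunit of the quinone-binding module, went the other way at its start (chr2:90903911-90905065), with 9.16-fold in 2iL, 3.19-fold after 48 h and 2.34-fold after 96 h. Ndufv2, an iron-sulfur core subunit, had 7.28-fold, 5.29-fold and 3.64-fold at positions 256, 276 and 292 bp after the start.

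The other core subunits had lower folds than these in 2iL, though not in every later library. Ndufs8 had 5.27-fold in 2iL, 3.84-fold after 48 h and 4.88-fold after 96 h. Ndufv1, which binds the flavin that accepts electrons from NADH, had no start region in any library, and its region lay upstream at position -2846 bp in 2iL, with 4.66-fold, 3.46-fold and 3.83-fold. Ndufs7, a core iron-sulfur subunit next to the quinone site, was nearly level in fold, with 4.24-fold in 2iL, 4.31-fold after 48 h and 4.01-fold after 96 h. The reads at the Ndufs7 summit were 79, 140 and 88. Its summits lay before the start of the promoter table, at -83, -55 and -73 bp, and inside the annotated gene span. The stretch is shown because it is one of 2 promoter windows of the members that held the summits of all 3 libraries. Capitals run from the outermost to the innermost summit (GRCm38.p6, RefSeq).
Ndufs7 (chr10:80249326-80249434, plus strand): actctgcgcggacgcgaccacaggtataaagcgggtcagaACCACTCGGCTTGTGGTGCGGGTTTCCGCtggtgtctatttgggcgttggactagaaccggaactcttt

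Accessory subunits surround the core and are needed for assembly and stability. The strongest complex I locus in 2iL lay inside Ndufb4, an accessory subunit of the membrane arm (chr16:37651107-37652119, position 2741 bp). It had 13.9-fold in 2iL and was called in neither later library. At the Ndufb4 start a separate locus was called in all 3 libraries, with 6.63-fold in 2iL, 5.65-fold after 48 h and 7.42-fold after 96 h. Ndufb7, of the same arm, also had an inner locus of high fold in 2iL. This locus (chr8:83568052-83569285, position 1646 bp) had 11.9-fold in 2iL and was called in neither later library, and its start locus (4.30-fold) was likewise called in 2iL alone. A region 5612 bp outside Ndufb7, nearest to Tecr, was called in all 3 libraries with 6.92-fold, 4.22-fold and 3.67-fold.

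Further accessory subunits had a locus at the start in all 3 libraries. Ndufb5 had 7.52-fold in 2iL, 6.20-fold after 48 h and 6.98-fold after 96 h, at positions 132, 131 and 122 bp. The same region lies within 1 kb of the start of Mrpl47, a mitochondrial ribosomal protein gene, so it cannot be assigned to one of them. Ndufb2 had 8.17-fold, 5.09-fold and 4.25-fold, at positions 143, 154 and 144 bp. Ndufab1, which is also the mitochondrial acyl carrier protein, had 4.95-fold, 4.75-fold and 6.40-fold, with its highest value at 96 h. Ndufc1 had 6.01-fold, 3.78-fold and 4.19-fold, and Ndufs6 had 5.73-fold, 3.43-fold and 3.69-fold. Ndufa6 had 7.79-fold, 4.92-fold and 4.28-fold near 1 kb after the start, at positions 998, 1021 and 992 bp, which at 48 h is outside the 1 kb window. Ndufa12 had 4.38-fold, 2.94-fold and 4.40-fold.

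Other accessory subunits had their strongest region away from the start. Ndufs4, whose loss causes Leigh syndrome, had its strongest locus 8998 bp beyond the far end of the gene (chr13:114277767-114280120), with 9.91-fold in 2iL, 4.67-fold after 48 h and 4.21-fold after 96 h. Its start locus had 8.93-fold in 2iL and 3.49-fold at 48 h and was not called at 96 h. Ndufc2 had 4.14-fold, 6.56-fold and 7.01-fold at a locus 6798 bp away, nearest to Thrsp, with the lowest value in 2iL. Its start locus had 5.60-fold in 2iL and 2.98-fold at 48 h and was not called at 96 h. Ndufb8 had 6.62-fold, 6.32-fold and 6.72-fold at a locus whose summits lay 1386, 1345 and 1297 bp away. The 2iL summit was nearest to Sec31b and the other two to Ndufb8. Ndufa11 had 6.29-fold, 5.87-fold and 3.67-fold at a locus with summits 8934, 7864 and 9057 bp upstream, nearest to Ranbp3, and a start region in 2iL alone (5.29-fold). Ndufv3 had an inner region of 6.58-fold in 2iL and 5.06-fold after 48 h and none after 96 h. Over the strongest regions of the 15 complex I members that are among the 30 members of highest fold, −log10 q ranged from 4.96 (Ndufs3 at 96 h) to 115 (Ndufb4 in 2iL).

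The rest of complex I was detected in part of the libraries. Ndufa9 and Ndufb6 had a start region in 2iL and at 48 h, and Ndufa7 had a region just outside the start window in the same libraries, at positions -1008 and -1017 bp, nearest to Rps28. Ndufa5 had its region in 2iL alone, with 3.61-fold, and Ndufb10 had 1 in 2iL alone, 8055 bp upstream and nearest to Rpl3l. Ndufa10 had a start region in 2iL and another region at 96 h, 1761 bp outside the far end. Ndufa2 had a start region at 48 h (4.59-fold) and at 96 h (4.02-fold) and none in 2iL. Ndufb11 had a region at 96 h alone, with 3.07-fold and 20 reads at the summit. No region within 10 kb was called in any library for Ndufa1, Ndufa3, Ndufa8, Ndufa13, Ndufb3, Ndufb9 and Ndufs5.

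Complex II, succinate dehydrogenase, links the chain to the TCA cycle. Each of its 4 members had a start region in all 3 libraries. Sdha, the flavoprotein that oxidises succinate, had 14.9-fold in 2iL, 6.58-fold after 48 h and 8.85-fold after 96 h (chr13:74349374-74350665). The 216 reads at its 2iL summit were the most of any member region in that library, and the positions were 166, 151 and 145 bp after the start. Ccdc127 starts within 1 kb of Sdha. Sdhb, the iron-sulfur subunit, had 6.25-fold, 3.66-fold and 3.82-fold, with summits before the start at -37, -58 and -74 bp. Sdhc, a membrane anchor, was level in fold with 6.59-fold, 6.42-fold and 6.32-fold, while its summit reads were 103, 169 and 89. Sdhd, the other anchor, had 5.90-fold, 6.33-fold and 6.89-fold, lowest in 2iL, at positions 130, 83 and 52 bp. The −log10 q of these loci ranged from 25.0 (Sdhb at 96 h) to 170 (Sdha in 2iL).

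Sequence from the promoter table is shown for Sdhb and Sdhd. The Sdhb window is the other one that held the summits of all 3 libraries, and capitals again run from the outermost to the innermost summit. The Sdhd window was the one member window with a full estrogen-related receptor element (TCAAGGTCA on either strand), and capitals mark it. It begins 36 bp after the start and reads on the strand opposite to the gene (GRCm38.p6, RefSeq).
Sdhb (chr4:140961157-140961274, plus strand): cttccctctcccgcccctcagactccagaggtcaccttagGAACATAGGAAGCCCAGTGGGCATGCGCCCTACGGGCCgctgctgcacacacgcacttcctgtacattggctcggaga
Sdhd (chr9:50603800-50603829, minus strand): tttccgggttgtagagTGACCTTGAgccct

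Complex III passes electrons from ubiquinol to cytochrome c. Of its 9 members, 8 had a region in 2iL, 6 after 48 h and 8 after 96 h, and all of these had it at the start. Cyc1, the cytochrome c1 subunit, had 7.69-fold in 2iL, 9.69-fold after 48 h and 6.46-fold after 96 h (chr15:76342906-76344557). Uqcrc1, a core protein, had 8.17-fold, 8.84-fold and 5.41-fold, at positions 213, 193 and 193 bp. For both of them the 48 h value was the highest. Uqcr10, a small subunit, had 9.86-fold, 6.69-fold and 8.19-fold, and Zmat5 starts within 1 kb of it. Uqcrc2, the other core protein, had 6.15-fold, 3.73-fold and 3.21-fold. Uqcrfs1, the Rieske iron-sulfur protein, had 6.77-fold in 2iL and 3.02-fold at 96 h and no region at 48 h. Uqcrq likewise had regions in 2iL (3.97-fold) and at 96 h (2.80-fold) and none at 48 h, and the 2iL summit was nearest to Gdf9. Uqcrb had 3.90-fold, 4.44-fold and 2.72-fold, and Uqcrh, the hinge protein, had 3.99-fold, 4.29-fold and 3.97-fold. Over the 5 members with values in the strongest set (Cyc1, Uqcrc1, Uqcr10, Uqcrc2 and Uqcrfs1), −log10 q ranged from 8.14 to 119. No region within 10 kb was called for Uqcr11.

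Cytochrome c, encoded by Cycs, carries electrons from complex III to complex IV. It had a start region of 4.53-fold in 2iL and 2.73-fold at 48 h, at positions 150 and 160 bp, and none at 96 h.

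Complex IV, cytochrome c oxidase, had the highest median fold of the 4 complexes in 2iL. Of its 10 members, 8 had a region in 2iL, 10 after 48 h and 7 after 96 h, and 8, 9 and 7 had a start region. The median fold was 9.50 in 2iL, 4.60 after 48 h and 4.19 after 96 h. Cox7c, a small membrane subunit, had the highest 2iL fold of any member, with 15.4-fold, against 6.17-fold after 48 h and 4.82-fold after 96 h (chr13:86044859-86047267, positions 387, 256 and 244 bp). Cox6c had 11.6-fold in 2iL and 3.67-fold at 48 h and no region at 96 h. Cox7b had 11.6-fold, 8.47-fold and 5.84-fold at its start locus, and 7.21-fold, 11.1-fold and 8.36-fold at a locus near position -3493 bp that was nearest to Magt1. The 2iL value was thus the highest at the first Cox7b locus and the lowest at the second. Cox4i1, which binds ATP and tunes the enzyme, had 10.1-fold, 6.29-fold and 5.35-fold (chr8:120667648-120669107).

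Cox5a had 9.50-fold in 2iL, 4.33-fold after 48 h and 3.57-fold after 96 h, at positions 501, 263 and 467 bp. Cox5b had 6.47-fold in 2iL and 5.18-fold at 48 h and no region at 96 h. Over Cox7c, Cox6c, Cox7b, Cox4i1, Cox5a and Cox5b, −log10 q ranged from 13.6 (Cox5a at 96 h) to 139 (Cox7c in 2iL). Cox6a1 had 5.44-fold, 3.48-fold and 3.35-fold. Cox6b1 had a start region in 2iL (3.86-fold) and a different, inner region at 48 h (4.60-fold), so its presence in both libraries was not one shared locus. Ndufa4 and Cox7a2 had start regions at 48 h and 96 h and none in 2iL. Their folds were among the lowest of the members, at 2.87-fold and 2.61-fold for Ndufa4, and 3.39-fold and 2.06-fold for Cox7a2.

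Several members held further loci beside those described. Sdhc had an inner locus in 2iL alone (5.99-fold), a locus 3020 bp away in 2iL and at 48 h (4.71-fold and 4.17-fold), and a locus 8657 bp away at 48 h alone (4.35-fold), so its start was the place called in all 3 libraries. Sdhd had an inner locus at position 1593 bp in 2iL alone (4.59-fold). Ndufs6 had a locus upstream, at positions -2782 and -2798 bp and nearest to Mrpl36, in 2iL (5.42-fold) and at 48 h (3.59-fold). Ndufs3 had a locus 5057 bp away, nearest to C1qtnf4, with 3.79-fold, 2.82-fold and 3.19-fold. Ndufb6 had a locus 210 bp beyond its far end, nearest to Smim27, in 2iL (4.24-fold) and at 48 h (3.14-fold). Of the 26 loci away from a member start, 9 were called in all 3 libraries and 8 in 2iL alone.

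**Figure D2:**
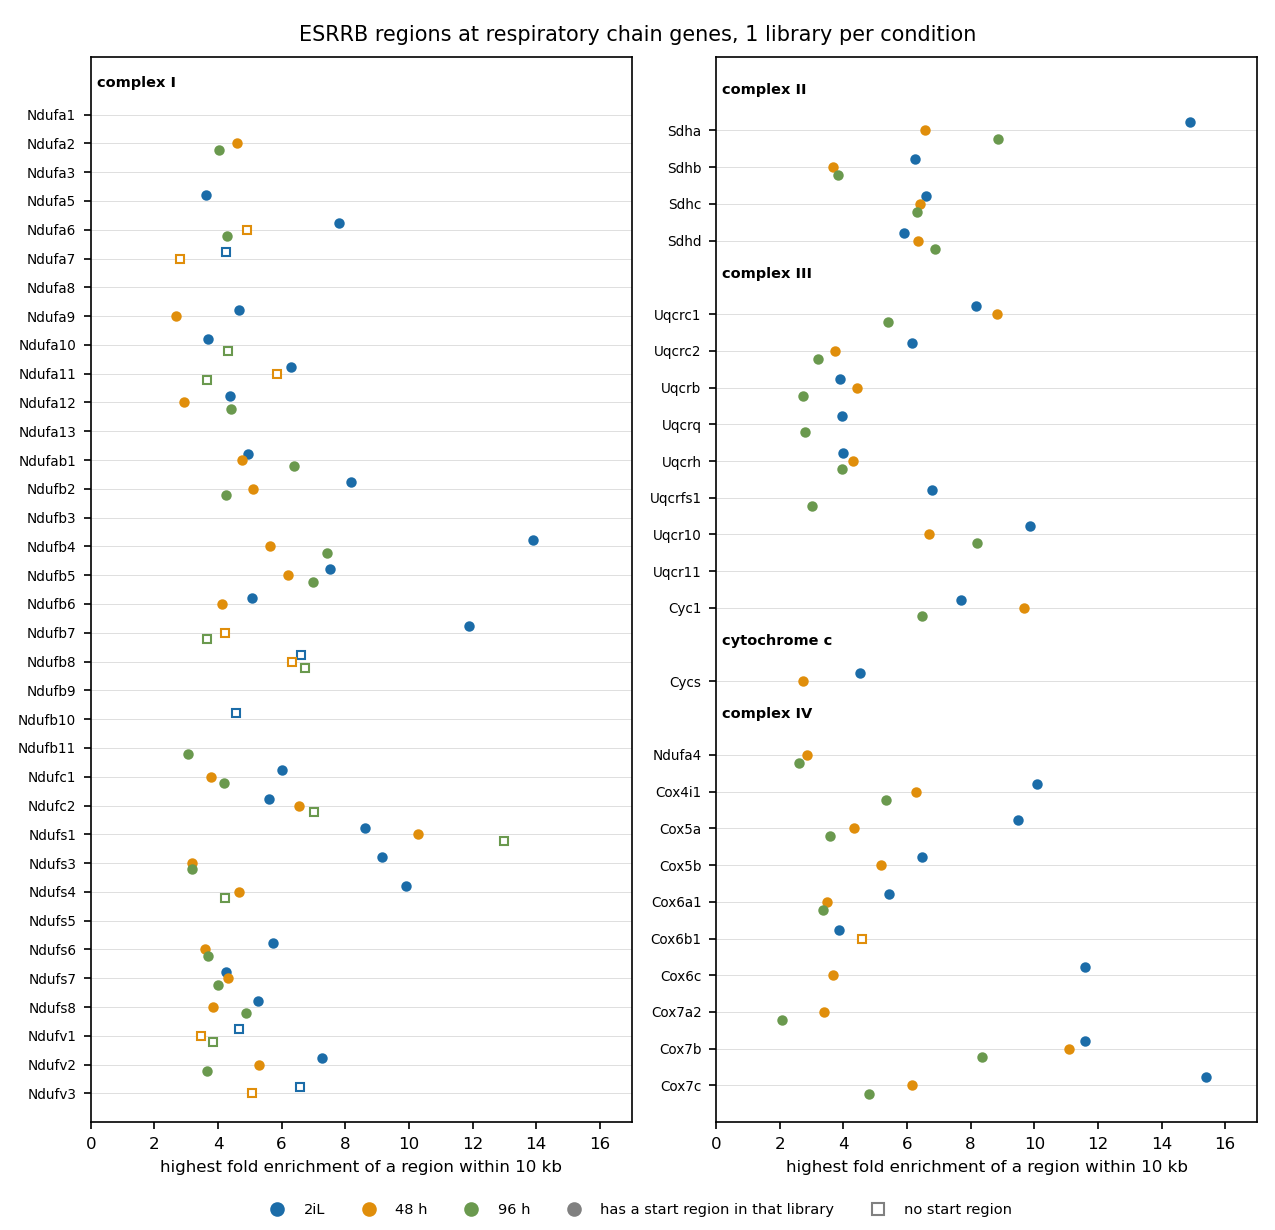
Highest fold enrichment (x axis, ratio to a local background) of an ESRRB region within 10 kb of each of the 59 genes. Colours are 2iL (blue), 48 h (orange) and 96 h (green), 1 library each. Filled circles are members with a start region in that library, open squares are members without one, and rows without a symbol had no region. The highest region of a member need not be its start region. Cox7c at 15.4-fold and Sdha at 14.9-fold in 2iL stand at the right.

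Most member regions of 2iL were called again after withdrawal. Of 65 regions, 50 overlapped a 48 h region by at least 1 bp (76.9%, 64.8 to 86.5), against 50.7% of all 2iL regions, and 39 overlapped a 96 h region (60.0%, 47.1 to 72.0), against 35.0%. For 2iL regions within 10 kb of any protein-coding gene the shares were 51.4% and 35.7%. At the start, 36 of 43 member regions (83.7%, 69.3 to 93.2) overlapped a region at 48 h and 30 of 43 (69.8%, 53.9 to 82.8) at 96 h. Start regions of all protein-coding genes were called in 55.7% and 45.7% of cases, and in 63.3% and 53.0% when weighted over 5 equal groups of fold to match the member start regions. The lower bounds of both member intervals lay above these weighted shares, by a small margin at 96 h. The weighting matched fold alone. Median summit reads in 2iL were 65 for member start regions and 53 for start regions of all protein-coding genes. How this bears on the shares was not tested. Away from the start, 14 of 22 member regions (63.6%, 40.7 to 82.8) were called at 48 h and 9 of 22 (40.9%, 20.7 to 63.6) at 96 h. These intervals include the shares of all 2iL regions. In the other direction, 49 of 55 member regions at 48 h (89.1%, 77.8 to 95.9) and 40 of 45 at 96 h (88.9%) overlapped a 2iL region, against 63.5% and 69.5% of all regions of those lists.

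These shares moved with the length of the lists. With each list shortened to equal length by fold, 63.6% of the 2iL member regions were called after 48 h and 78.8% after 96 h, and with the lists shortened by p the shares were 89.2% and 78.4%. The share was thus higher at 48 h in the whole lists and by p, and higher at 96 h by fold. The shares over all 2iL regions were not recomputed at equal length, so these values have no background beside them.

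**Figure D3:**
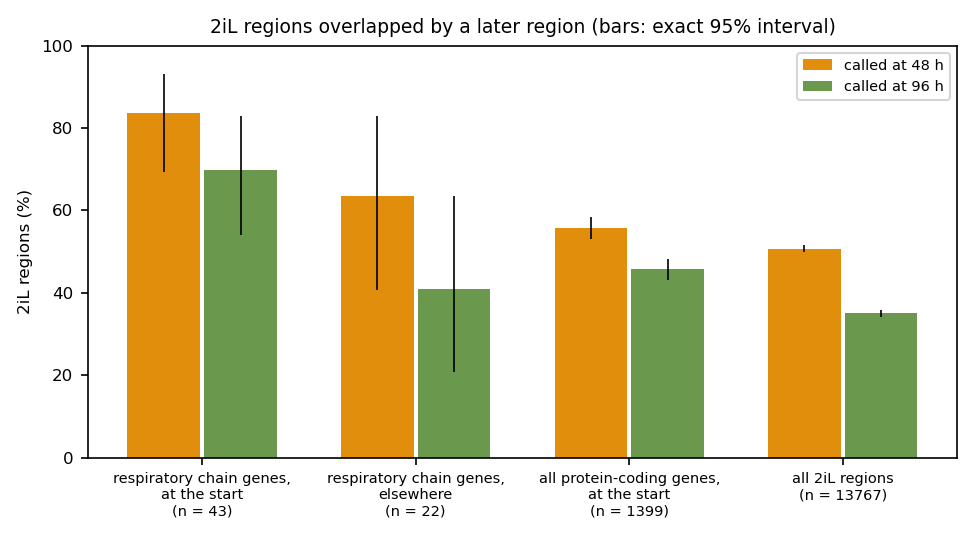
Percent of 2iL regions that overlapped a region at 48 h (orange) or 96 h (green), for start regions of the respiratory chain genes, their other regions, start regions of all protein-coding genes and all 2iL regions, with exact 95% intervals. Member start regions were called in 83.7% and 69.8% of cases, against 50.7% and 35.0% of all 2iL regions.

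Merged over the libraries, the members held 72 loci, of which 36 were called in all 3 libraries, 13 in 2iL and at 48 h, and 13 in 2iL alone. The others were 2 loci in 2iL and at 96 h, 3 at 48 h and 96 h, 3 at 48 h alone and 2 at 96 h alone. Of the 46 start loci, 27 were called in all 3 libraries (58.7%), against 31.5% of the 1828 start loci of all protein-coding genes, and 5 in 2iL alone (10.9%), against 29.3%. The 5 were at Ndufa5, Ndufa10, Ndufa11, Ndufb7 and Cox6b1. Among the 36 loci called in all 3 libraries, the fold was highest in 2iL at 23, at 48 h in 6 and at 96 h in 7. The rank of the fold within its own list was highest in 2iL at 17, at 48 h in 7 and at 96 h in 12. The reads at the summit were highest at 48 h in 33 of the 36, the library with the highest background floor. Folds and reads therefore ordered the libraries differently at the same loci, and how the depth of the libraries bears on either order was not tested.

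The member regions were of middling strength within each list. Their median fold was 5.90 in 2iL, 4.33 after 48 h and 4.19 after 96 h, which is the 50.3, 35.4 and 34.7 percentile of rank among all regions of the list. Start regions of all protein-coding genes had medians at the 34.1, 32.0 and 31.7 percentile, against 52.3, 34.9 and 34.7 for member start regions. The median reads at the summit of a member region were 61, 94 and 55, against 51, 68 and 45 over all regions. The members were thus above the typical region in reads and at or below it in fold.

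Summits at the member starts lay mostly just after the start of the promoter table. Among the 49 members with a start in the promoter table, 34 had a start region in 2iL, and the summit was after the start in 30 (88.2%, 72.5 to 96.7). This compared with 49.5% of the 1178 protein-coding genes with such a region. At 48 h it was 24 of 29 (82.8%), against 48.0% of 887, and at 96 h 22 of 26 (84.6%), against 45.2% of 722. The median position was 146, 134 and 154 bp after the start for the members and -11, -42 and -69 bp for all protein-coding genes. Positions from the start to 300 bp after it held 25, 22 and 16 of the member summits (73.5%, 75.9% and 61.5%), against 27.3%, 25.8% and 24.9%. Between libraries the summits moved little. The median distance between the summits of a shared member start region was 22 bp from 2iL to 48 h (36 regions) and 36 bp from 2iL to 96 h (30 regions), against 27 and 30 bp over all shared regions.

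**Figure D4:**
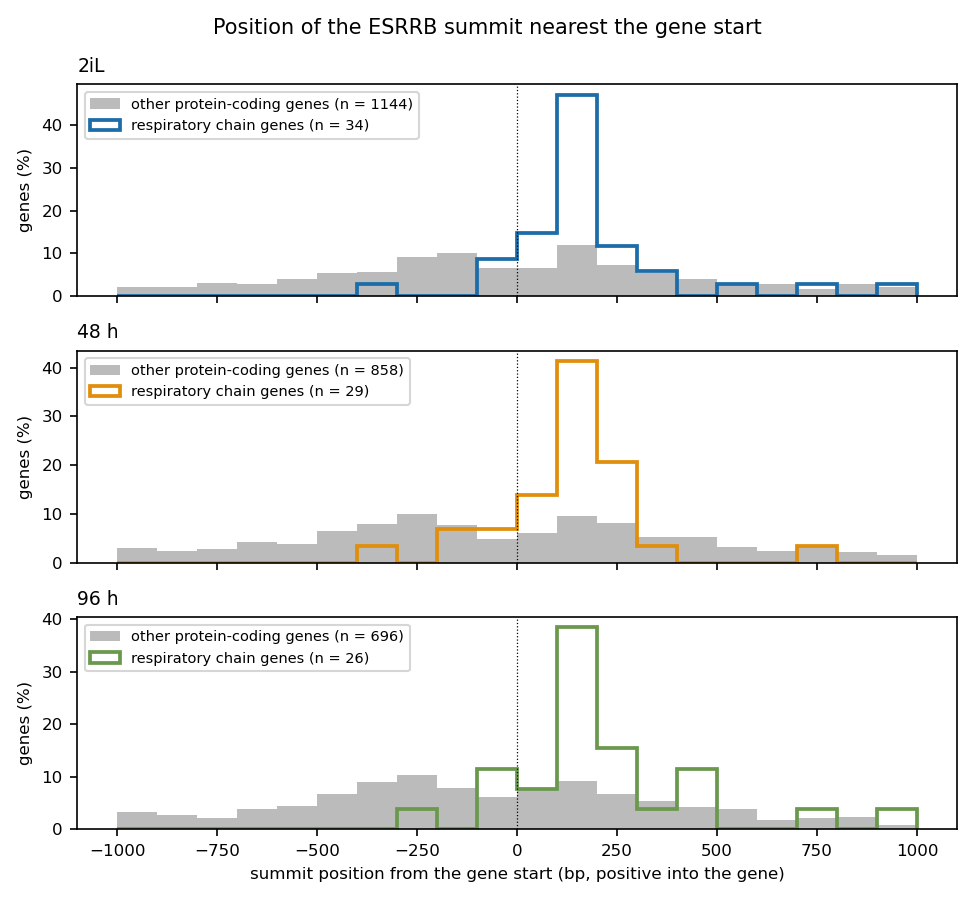
Position of the ESRRB summit nearest the gene start (x axis, bp, positive into the gene) in percent of genes with a start region, for respiratory chain genes (coloured line) and other protein-coding genes (grey), in 100 bp bins, 1 panel per library. The member medians are 146, 134 and 154 bp, while the other genes spread over both sides of the start.

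Neighbouring genes limit the assignment of some regions. Of the 49 members with a start in the table, 15 had another protein-coding start within 1 kb (30.6%), against 9.99% of protein-coding genes. Ndufb5, Sdha and Uqcr10 were among the 15. Others with a start region (neighbour in parentheses) were Ndufs3 (Kbtbd4), Sdhd (Timm8b), Uqcrh (Lrrc41), Ndufa11 (Vmac), Ndufa5 (Asb15), Ndufa4 (Phf14) and Ndufb11 (Rbm10). A start region in 2iL was called for 8 of these 15 and for 26 of the 34 without such a neighbour (76.5%), against 11.4% and 6.21% of protein-coding genes. At 48 h the member shares were 46.7% with and 64.7% without a neighbouring start, against 7.44% and 4.81% of protein-coding genes. At 96 h they were 53.3% and 52.9%, against 7.10% and 3.80%. Differences between members with and without such a neighbour were not tested. The nearest protein-coding gene to the summit was the member itself for 52 of 65 regions in 2iL, 44 of 55 at 48 h and 39 of 45 at 96 h.

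Promoter windows (250 bp before to 50 bp after the start) were searched on both strands for 5 letter strings, in 51 member windows and 32851 windows of the RefSeq table. The windows end before most member summits, and held a summit for 8 of 49 members. The core of the estrogen-related receptor element, AAGGTCA, was in 4 member windows (7.84%), against 4.72% of all windows, and these 4 include the full element of Sdhd. They were Ndufb2, Ndufb4, Sdhd and Ndufs5, and Ndufs5 had no region within 10 kb. The full element TCAAGGTCA was in 1 member window (1.96%), against 0.423%. Among windows of protein-coding genes, 4.08% held the core and 0.334% the full element. Among windows overlapped by a 2iL region, 3 of 35 member windows and 9.92% of 1704 windows held the core. A match here is a description of the letters. The stretches of Ndufb2 and Ndufb4 are shown with the core in capitals (GRCm38.p6, RefSeq).
Ndufb2 (chr6:39592339-39592435, plus strand): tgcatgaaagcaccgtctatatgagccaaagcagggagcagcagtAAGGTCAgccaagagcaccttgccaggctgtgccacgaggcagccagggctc
Ndufb4 (chr16:37654372-37654468, minus strand): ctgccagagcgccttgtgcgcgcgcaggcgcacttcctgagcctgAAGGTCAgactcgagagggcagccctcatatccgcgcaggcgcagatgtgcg

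Strings of other regulators of respiratory genes were also present. AAGATGGCG, the YY1 string, was in 5 member windows (9.80%), against 1.40% of all windows, 1.83% of windows of protein-coding genes and 3.29% of windows under a 2iL region. In each of them it was on the strand of the gene and began 22 to 35 bp after the start, and the 5 members (Ndufa9, Ndufc1, Ndufs4, Ndufs6 and Ndufs7) are all of complex I. CGCATGCG, the core of the NRF1 site, was in 6 (11.8%), against 1.87%, 2.52% and 3.87% of the same sets. These were Ndufa8, Ndufa11, Uqcrc1, Uqcr11, Cycs and Cox6a1. Ndufa8 and Uqcr11 among these had no region. CCGGAAG, an ETS string of the family of GABPA, was in 10 (19.6%), against 8.86%, 11.6% and 15.7%. Of the 35 member windows under a 2iL region, 5 held the YY1 string, 4 the NRF1 core and 9 the ETS string. The 10 members with the ETS string, under a region or not, were Ndufb6, Ndufb7, Ndufs3, Ndufs8, Sdhb, Sdhd, Uqcrh, Uqcr11, Cox6a1 and Cox6b1. Of these, Uqcr11 had no region. Shown are the 5 stretches with the YY1 string, for their shared place, and the NRF1 core of Cycs and Uqcrc1, each in capitals (GRCm38.p6, RefSeq).
Ndufa9 (chr6:126849097-126849126, minus strand): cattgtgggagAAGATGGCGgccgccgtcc
Ndufc1 (chr3:51408915-51408944, minus strand): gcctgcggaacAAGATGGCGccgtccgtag
Ndufs4 (chr13:114388045-114388074, minus strand): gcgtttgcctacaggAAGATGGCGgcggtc
Ndufs6 (chr13:73328433-73328462, minus strand): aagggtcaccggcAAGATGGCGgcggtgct
Ndufs7 (chr10:80249462-80249491, plus strand): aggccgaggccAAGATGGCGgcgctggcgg
Cycs (chr6:50566578-50566675, minus strand): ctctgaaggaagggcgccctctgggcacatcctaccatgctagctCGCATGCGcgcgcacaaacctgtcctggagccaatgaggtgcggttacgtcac
Uqcrc1 (chr9:108936667-108936696, plus strand): gactccgctctgCGCATGCGcagcgcggct

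Other genes of oxidative phosphorylation were counted in the same way. ATP synthase genes had a region within 10 kb in 13 of 16 cases in 2iL, 14 after 48 h and 13 after 96 h, and a start region in 13, 13 and 11, beside the backgrounds given above. Atp5a1 (alpha subunit) had 19.0-fold in 2iL, 9.33-fold after 48 h and 8.58-fold after 96 h, higher in each library than the start locus of any complex I member. Atp5c1 (gamma subunit) had 17.2-fold, 11.6-fold and 6.82-fold, Atp5g3 (a subunit c gene) had 13.8-fold, 10.3-fold and 15.0-fold, Atp5o had 11.8-fold, 9.94-fold and 9.47-fold, and Atp5l had 10.0-fold, 4.27-fold and 4.66-fold. The summits of Atp5c1 lay 143, 142 and 150 bp after the start.

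Among TCA cycle and pyruvate dehydrogenase genes, 11, 10 and 10 of 16 had a region (68.8%, 62.5% and 62.5%). This compared with 31.7%, 27.1% and 20.1% of protein-coding genes. A start region was called for 9, 7 and 6 (56.2%, 43.8% and 37.5%), against 6.78%, 5.15% and 4.19%. At the start, Ogdh had 9.21-fold, 7.07-fold and 4.77-fold, and Idh3b had 5.91-fold, 4.21-fold and 4.34-fold. Idh3a had 5.77-fold, 4.64-fold and 2.74-fold. Sucla2 had 5.48-fold, 3.46-fold and 2.73-fold, with summits at positions 997, 224 and 12 bp, so a shared locus was not shown.

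Assembly factors had a region in 19, 17 and 17 of 46 cases (41.3%, 37.0% and 37.0%), against 31.7%, 27.1% and 20.1% of protein-coding genes. A start region was called for 11, 8 and 11 (23.9%, 17.4% and 23.9%), against 6.78%, 5.15% and 4.19%. Cox17, a copper chaperone, had 11.9-fold, 4.50-fold and 4.95-fold, Ndufaf4 had 10.6-fold, 4.06-fold and 5.19-fold, and Cox11 had 8.78-fold, 10.6-fold and 4.66-fold. Cox20 had 8.05-fold, 7.35-fold and 5.07-fold, and Cox10 had 7.84-fold, 4.64-fold and 3.33-fold. Of 12 subunits and tissue isoforms outside the members, 7 (58.3%) had a region in each library, against 31.7%, 27.1% and 20.1%. A start region was called for 3, 1 and 3 (25.0%, 8.33% and 25.0%), against 6.78%, 5.15% and 4.19%. Cox8a had 6.71-fold, 4.85-fold and 4.82-fold. Mitochondrial ribosomal protein genes had a region in 28, 24 and 24 of 78 cases (35.9%, 30.8% and 30.8%). The 2iL and 48 h shares were near the 31.7% and 27.1% of protein-coding genes, and the 96 h background was 20.1%. A start region was called for 15, 11 and 11 (19.2%, 14.1% and 14.1%), against 6.78%, 5.15% and 4.19%. Mrpl12 led these with 9.94-fold, 5.43-fold and 4.54-fold, followed by Mrps35 (9.48-fold, 5.88-fold and 3.86-fold), Mrpl47 (the region shared with Ndufb5), Mrpl42 (7.11-fold, 4.43-fold and 4.63-fold) and Mrps18b (5.44-fold, 4.54-fold and 2.88-fold).

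Cytosolic ribosomal protein genes, which are also short and highly expressed, had a region within 10 kb in 38, 27 and 17 of 80 cases and a start region in 9, 4 and 5. Rpl23a had 3.71-fold, 4.35-fold and 4.78-fold. Of 11 transcription factors and coactivators of respiratory genes, 6, 6 and 5 had a region (54.5%, 54.5% and 45.5%), against 31.7%, 27.1% and 20.1%. In each library 2 of them had a start region (18.2%), against 6.78%, 5.15% and 4.19%. Esrra, the related receptor, had 13.2-fold, 9.50-fold and 9.51-fold at positions -525, -530 and -541 bp. Gabpa had 8.32-fold, 8.37-fold and 4.77-fold at a region that is also within 1 kb of the start of Atp5j, an ATP synthase gene. The differences in share between these lists and the members were not tested.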

How the data were processed

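ESRRB was measured by ChIP-seq in 3 libraries, 1 per condition. Per the submitters' processing notes, bcl2fastq 2.20.0.422, BWA, SAMtools, Picard and MACS2 were used with the build mm10. For their roles, the other versions, the control and the threshold of calling, the sources used here state nothing. The deposited peak lists hold, for each summit, the authors' score, their fold enrichment (a ratio to the local background), a p-value and a q-value, each deposited as −log10, and the summit offset in bp from the interval start. From fold and p, reads at summits were recovered as whole numbers, to within 0.05, for 99.9%, 99.8% and 99.9% of summits. The median reads at a region's summit were 51, 68 and 45.

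Regions were unique intervals. Summits within 10 kb of RefSeq gene spans, overlaps of at least 1 bp and exact Clopper-Pearson 95% intervals were computed with Python 3.11.15, pandas 2.3.3, NumPy 2.4.6 and SciPy 1.17.1, and plotted with matplotlib 3.10.9. The code was tested on simulated data. Exons and introns were not told apart. With 1 library per condition no test was made. Alternatives were a 50 kb window, a start window of 500 bp, any summit of a region, q at most 1e-05, overlap of 50% of both regions, summits within 200 bp, lists of equal length, all annotated genes as background and a start from the promoter table alone.

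The members and lists were chosen with earlier results of these data known. Every member with a region was named, values by library were given for the strongest region of the 30 strongest members, and for other lists at most 5 genes with a start region in all 3 libraries were named, by 2iL fold. Values of the other members were added after they were seen. Some genes that this rule names in the other lists are not reported here.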

Additional observations from a re-analysis of the deposited data

How the results depend on the processing

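Of 89 recomputed counts and shares, 70 stayed within 1.5 times the reported count or within the interval of the reported share, and 19 moved. Within 50 kb the members held 104, 92 and 68 regions in the 2iL, 48 h and 96 h lists, and 71.7% of the 48 h regions overlapped a 2iL region. With lists of equal length by fold, 28 members had a region in 2iL and 25 at 48 h, with 33 and 27 regions and 23 and 17 of them at the start. The shares were then 63.6% for 2iL regions called at 48 h, 78.8% for those called at 96 h, and 62.2% for 96 h regions called in 2iL. With lists of equal length by p, an alternative chosen after seeing the data, 37 regions lay near members in 2iL, 28 of them at the start, and the 3 shares were 89.2%, 78.4% and 68.9%. An overlap of 50% of both regions gave 73.3% for 96 h regions called in 2iL. For these shares of regions, the values over all regions were not recomputed. With all annotated genes as background, 23.0%, 19.6% and 14.2% had a region within 10 kb. Shorter lists hold fewer regions by construction; the cause of the other moves was not tested. No paired analysis was possible because each condition had 1 library. Depth differed between libraries and was known from summit reads alone, so a region not called in a library may lie under its limit of detection.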
